A study of Mus musculus with 2 samples.

Results

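Long noncoding RNA (lncRNA) promoters were examined in single-cell ATAC-seq data from mouse embryonic skin (back, E16.5). A lncRNA promoter was taken as an accessible region, called in both libraries, that lay within 500 bp of the start of a lincRNA gene in the GENCODE annotation and more than 2 kb from the start of any protein-coding transcript. The rule was met by 1876 of 214119 shared regions (0.876%), which serve 1820 of the 5854 annotated lincRNA genes (31.1%). The rule uses position only and no measured level, apart from the need for a peak in each library.

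Each genotype, Control and MOF cKO, was represented by 1 library. The MOF cKO embryos carried floxed alleles of the histone H4 lysine 16 acetyltransferase MOF (gene Kat8) and Cre driven by the Krt14 promoter, which is active in skin epithelium (MOFfl/fl/K14Cre). The genotype of the Control embryos is given only as Control, and the study describes its controls as wild-type or heterozygous littermates and its mice as of mixed C57Bl/6J and CD-1 background. Both libraries carried the K14-H2BGFP reporter. Epithelial cells sorted for GFP were mixed again with GFP-negative cells, by the labels at 5 parts to 1. The study's text gives other ratios, and epithelial-like cells made up 56.0% of the Control and 58.05% of the MOF cKO cells. The study's methods describe a single pair of samples for this assay, and the number of embryos in each sample is not given in the sources used here.

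LncRNAs are transcripts that are made by RNA polymerase II, are often spliced, and carry no long open reading frame. Some act in the nucleus, such as Xist, which coats and silences an X chromosome, and Neat1, which holds paraspeckles together. Others host small RNAs in their introns or lie beside developmental genes. A promoter rich in CpG dinucleotides usually stays open in most tissues, whereas CpG-poor promoters and enhancers tend to be open in a few cell types. Most lincRNA models carry provisional names, and the 1820 genes here comprised 1225 named Gm with a number, 385 Rik clones and 210 with other names.

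With 1 library per genotype nothing could be tested between genotypes. Intervals are 95% intervals of counting error on fragments and cover neither embryos nor library preparation. The Control library held 2541 barcodes and the MOF cKO library 4348, with 169641002 and 324310197 transposition sites in peaks, and 21 barcodes occurred in both. Cells were clustered with the lncRNA promoters left out, and clusters were named from the promoters of marker genes as epithelial-like (1390 Control and 2524 MOF cKO cells) or fibroblast-like (664 and 1252 cells). In the epithelial-like clusters 5 to 10 of 12 epithelial markers stood at least 2-fold above the other classes, and in the fibroblast-like clusters 9 to 11 of 11 fibroblast markers did. The epithelial-like cells of the genotypes lay in different clusters, with clusters 2, 11, 12, 14 and 17 holding those of Control and clusters 0, 1, 3, 8 and 19 those of MOF cKO. Fibroblast-like cells were mostly in clusters 6, 7 and 13 in Control and in clusters 4, 5 and 7 in MOF cKO. A change within cells and a change in the mixture of states within either class therefore cannot be told apart. Clusters 12 and 19 had median doublet scores of 0.80 and 0.92, the highest of the epithelial-like clusters, and the values that moved most without them are also given without them. Levels are given as CPM, the sites of a class in a region scaled to 1000000 sites of that class in all shared regions. In epithelial-like cells the region at the start of Kat8 (chr7:127912148-127913084) had 48.7 CPM in Control against 36.6 in MOF cKO, but accessibility there does not measure the deletion, so the genotype labels were not checked by it.

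Sequences of a few lncRNA promoters are shown first. These promoters were picked by their change in MOF cKO, their CpG content or the letters they hold, so they serve as examples only. The first set holds the AP-1 letters TGACTCA, or TGAGTCA on the other strand, in capitals. AP-1 is the family of Fos and Jun transcription factors, which bind this sequence at many enhancers of keratinocytes. These are the 6 of the 8 lncRNA promoters with the largest increase in MOF cKO epithelial-like cells that hold the letters in their central 400 bp, and each line runs 5′ to 3′ on the strand of the lncRNA with 40 bases on either side of the match nearest the centre (GRCm38). They were read at chr8:34524037-34524123, chr4:89039053-89039139, chr13:15806987-15807073, chr5:31568039-31568125, chr14:66340861-66340947 and chr14:46636491-46636577, in that order. The annotated start of the transcript lay 97 to 991 bp from the middle of these stretches.
Gm33968: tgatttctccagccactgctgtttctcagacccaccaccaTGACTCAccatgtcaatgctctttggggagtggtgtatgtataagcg
AL805899.2: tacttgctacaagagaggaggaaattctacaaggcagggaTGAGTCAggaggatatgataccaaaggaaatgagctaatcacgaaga
A530046M15Rik: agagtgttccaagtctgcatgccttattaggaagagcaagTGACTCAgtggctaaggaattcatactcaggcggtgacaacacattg
Gm43660: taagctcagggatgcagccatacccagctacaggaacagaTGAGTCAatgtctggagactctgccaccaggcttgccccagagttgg
Gm41183: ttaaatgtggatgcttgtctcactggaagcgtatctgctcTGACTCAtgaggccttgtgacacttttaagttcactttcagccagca
4933425B07Rik: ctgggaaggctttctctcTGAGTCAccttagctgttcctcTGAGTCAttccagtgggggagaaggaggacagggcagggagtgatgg

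The lncRNA promoters with the largest decrease in epithelial-like cells held no such match in their central 400 bp. For contrast, the central 100 bases of the first 4 of them are given on the strand of the lncRNA, from chr13:48031569-48031668, chr5:106321137-106321236, chr10:117559881-117559980 and chr5:64635733-64635832. A missing match says only that these letters are not in the window.
Gm36101: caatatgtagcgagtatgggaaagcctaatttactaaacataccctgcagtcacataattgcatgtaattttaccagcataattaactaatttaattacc
Gm32921: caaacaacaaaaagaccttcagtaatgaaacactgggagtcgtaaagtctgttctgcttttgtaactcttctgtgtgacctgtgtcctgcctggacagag
Gm32235: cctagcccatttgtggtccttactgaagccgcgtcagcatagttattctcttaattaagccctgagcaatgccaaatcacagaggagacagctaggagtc
Gm42565: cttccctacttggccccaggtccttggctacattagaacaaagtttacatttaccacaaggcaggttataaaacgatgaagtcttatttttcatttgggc

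CpG-rich lncRNA promoters form a further kind. For 3 widely expressed genes the sequence from 150 bases before to 50 bases after the annotated start is shown, with the letters of the GC box, the Sp1 site GGGCGG, in capitals on whichever strand they were found. These are Lockd, which starts downstream of the cell cycle inhibitor gene Cdkn1b (chr6:134928942-134929141), the snoRNA host Snhg6 (chr1:9944069-9944268) and 1700020I14Rik, known as Cyrano (chr2:119594147-119594346).
Lockd: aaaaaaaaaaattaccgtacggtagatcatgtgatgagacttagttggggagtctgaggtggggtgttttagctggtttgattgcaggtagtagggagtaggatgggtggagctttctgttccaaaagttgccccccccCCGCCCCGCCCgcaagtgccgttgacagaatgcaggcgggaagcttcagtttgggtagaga
Snhg6: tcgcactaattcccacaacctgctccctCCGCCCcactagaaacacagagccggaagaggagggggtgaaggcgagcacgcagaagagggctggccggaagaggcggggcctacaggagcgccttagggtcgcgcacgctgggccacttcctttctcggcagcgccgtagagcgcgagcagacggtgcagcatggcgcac
1700020I14Rik: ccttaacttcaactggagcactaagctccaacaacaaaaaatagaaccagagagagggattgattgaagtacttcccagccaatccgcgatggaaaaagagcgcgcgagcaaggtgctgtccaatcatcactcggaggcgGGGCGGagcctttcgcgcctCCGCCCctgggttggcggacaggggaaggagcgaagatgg

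As a set, lncRNA promoters were less accessible, poorer in CpG and more varied than protein-coding promoters. Their median level in Control epithelial-like cells was 2.45 CPM per kb, against 20.4 at the 14516 regions within 500 bp of a protein-coding gene start and 1.45 at the 165639 distal regions more than 2 kb from any annotated start. In Control fibroblast-like cells the same medians per kb were 2.03, 23.5 and 1.09. Of the lncRNA promoters, 133 (7.09%) were CpG-rich, meaning an observed to expected CpG ratio of at least 0.6 and a GC content of at least 50%. That share was 64.3% at protein-coding promoters and 0.486% at distal regions. Widths ran from 318 to 2409 bp with a median of 924 bp, 1301 regions contained the annotated start itself, and 18 lay on the X chromosome. The nearest protein-coding start was a median of 49466.5 bp away, and 43 regions lay near more than 1 lincRNA start.

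A pair of neighbouring regions on chromosome 17 held a large part of the sites at lncRNA promoters. In epithelial-like cells Gm26917 (chr17:39842967-39844955) had 2247 CPM in Control against 1761 in MOF cKO, and AY036118 (chr17:39847725-39848917) had 1314 and 1009. This stretch of the reference carries a copy of the ribosomal DNA repeat, so reads from the many copies elsewhere in the genome can be counted there. Together the pair took 24.2% of the sites at lncRNA promoters in Control epithelial-like cells and 20.1% in MOF cKO. The log2 ratio of MOF cKO to Control for the pair was −0.36 (−0.37 to −0.35) in epithelial-like cells, and 0.21 (0.1995 to 0.23) in fibroblast-like cells. It is kept apart from the other 1874 regions in what follows where sites were summed.

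Over the other 1874 lncRNA promoters the summed share of sites in shared regions hardly differed between genotypes or cell classes. Shared regions held 96.6% of the peak sites of the Control library and 88.5% of those of MOF cKO, so the share leaves out more of the latter. Control epithelial-like cells had 1.12% of their shared-region sites at these 1874 promoters (exact binomial interval 1.113–1.118) against 1.10% (1.1004–1.1044) in MOF cKO. The log2 ratio was −0.02 (−0.02 to −0.01). For fibroblast-like cells the shares were 1.10% and 1.12%, with a log2 ratio of 0.03 (0.02 to 0.03). With the pair included the log2 ratio was −0.09 for epithelial-like cells and 0.07 for fibroblast-like cells, so the pair accounted for most of both values. The sign of both values with the pair depended on the scaling. The epithelial-like value was −0.24 by sites in own peaks and 0.058 by median-of-ratios. By number of cells the fibroblast-like value was −0.20. A change of scaling moves the values without the pair by the same amount. Their nearness to 0 therefore holds only for the share of shared-region sites. At protein-coding promoters the summed share of epithelial-like cells was 32.8% in Control against 24.5% in MOF cKO (log2 ratio −0.42), and at distal regions 48.3% against 57.4% (0.25). The other cell classes held few cells. Without the pair their shares ran from 1.12% to 1.24% of sites over immune-like, mural-like, muscle-like and endothelial-like cells of both libraries.

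Region by region, lncRNA promoters spread widely in both directions in epithelial-like cells. All 1876 had at least 20 sites over both libraries. The median log2(MOF cKO/Control) was −0.17 with quartiles at −0.62 and 0.53, and 58.0% were lower in MOF cKO. At least 2-fold lower were 224 (11.9%) and at least 2-fold higher 296 (15.8%). These shares were close to those of all shared regions, of which 12.4% were lower and 16.8% higher by 2-fold, with a median of −0.15. The balance of directions depended on the scaling, since 290 were lower and 264 higher when scaled by sites in own peaks, and 147 and 340 by median-of-ratios. A change of scaling moves all shared regions by the same amount, and their shares were not counted at these scalings. These counts are therefore not particular to lncRNA promoters. Protein-coding promoters behaved otherwise, with a median of −0.43, quartiles at −0.56 and −0.21, and only 3.31% lower and 2.51% higher by 2-fold. Relative to the median of all shared regions, a shift of −0.15 that the scaling sets, the median lncRNA promoter was thus near 0 and the median protein-coding promoter below it. Without clusters 12 and 19 the median of lncRNA promoters was −0.09.

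In fibroblast-like cells, in which this Cre is not expressed by design, the spread was narrower. Of the 1876 regions 1808 reached 20 sites. Their median was 0.06 with quartiles at −0.29 and 0.47, and 103 (5.70%) were at least 2-fold lower and 177 (9.79%) at least 2-fold higher. Scaled by number of cells, 175 were lower and 109 higher, and all shared regions were not counted at that scaling. In the main scaling the shares over all shared regions were 7.28% and 10.8%, with a median of 0.02. At protein-coding promoters they were 1.2% and 2.21%, with a median of −0.03. Members had a median of 215.5 sites in fibroblast-like and 879.5 in epithelial-like cells, so single values were less precise in the former.

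**Figure D1:**
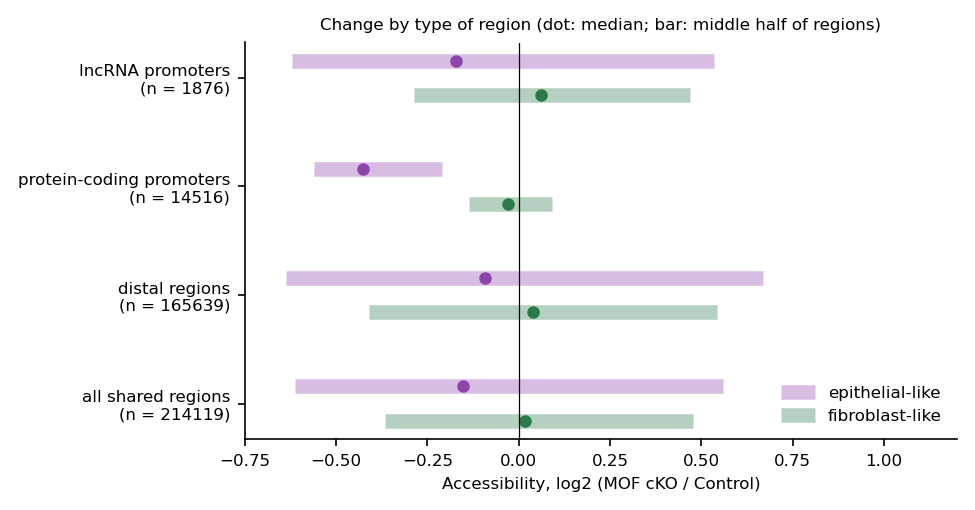
Log2 ratio of MOF cKO to Control accessibility (x axis) for 4 sets of regions (rows) in epithelial-like and fibroblast-like cells; dots are medians and bars run between the quartiles. In epithelial-like cells the lncRNA promoters, with a median of −0.17 and quartiles at −0.62 and 0.53, resemble distal and all shared regions in spread, whereas protein-coding promoters lie between −0.56 and −0.21.

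CpG content divided the lncRNA promoters. The 133 CpG-rich ones had a median of −0.40 in epithelial-like cells with quartiles at −0.60 and −0.16. Of them 86.5% were lower in MOF cKO, 1 was lower by 2-fold, and 0 were higher by 2-fold. CpG-rich protein-coding promoters had a median of −0.45 and 92.8% were lower, and over all CpG-rich shared regions these values were −0.43 and 90.1%. By 2-fold, 1.16% of the latter were lower and 0.359% higher. The 1743 CpG-poor lncRNA promoters had a median of −0.11, with 223 (12.8%) at least 2-fold lower and 296 (16.98%) at least 2-fold higher. All CpG-poor shared regions had the same median of −0.11, with 13.1% lower and 17.9% higher by 2-fold. Without clusters 12 and 19 the CpG-poor lncRNA promoters had a median of −0.056, with 174 (9.98%) lower and 342 (19.6%) higher by 2-fold, and all CpG-poor shared regions had −0.046, with 11.03% and 19.8%. In fibroblast-like cells the CpG-rich lncRNA promoters were centred at −0.01, and 50.4% of them were lower. All CpG-rich shared regions had a median of −0.034 there, with 60.1% lower, and CpG-rich protein-coding promoters −0.035, with 61.4% lower. The median of the CpG-rich group was −0.40 with and without clusters 12 and 19. Members that were strongly accessible in Control showed the same lean. Above their upper quartile of 7.23 CPM per kb the median was −0.40 and 77.8% were lower, against −0.39 and 77.6% at all shared regions and −0.45 and 93.6% at protein-coding promoters of the same range of levels. This grouping shares its Control values with the ratio and is given as a description.

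The 6 lncRNA promoters with the highest CPM after the pair, with 63.4 to 90.5 CPM per kb, showed this decrease one by one. Gm6410 (chr8:4677216-4678284) had 96.8 CPM in Control and 71.2 in MOF cKO in epithelial-like cells, a log2 ratio of −0.44 (−0.49 to −0.39), and 101 and 106 in fibroblast-like cells. A230028O05Rik (chr16:25058706-25059694), in an intergenic stretch whose nearest coding start is that of Lpp, had 88.9 in Control and 47.5 in MOF cKO, a log2 ratio of −0.90 (−0.96 to −0.85), the largest decrease of these 6. It was also lower in fibroblast-like cells, with 68.6 and 56.7 (−0.27, −0.38 to −0.17). Gm26901, 6720427I07Rik, Gm11527 and Gm10010 had between 59.7 and 79.5 CPM in Control, and between 41.3 and 54.8 in MOF cKO. Their log2 ratios ran from −0.61 to −0.43, while in fibroblast-like cells they ran from −0.08 to 0.05. For these 6 regions the range of levels over the 5 Control epithelial-like clusters did not meet the range over the 5 MOF cKO clusters. The same separation, with MOF cKO lower, was seen at 135 lncRNA promoters (7.20%), at 5.83% of all shared regions and at 37.2% of protein-coding promoters. With MOF cKO higher it was seen at 191 lncRNA promoters (10.2%) and at 10.4% and 2.18% of the other sets. For Gm6410 it was 89.0 to 102 in Control and 67.6 to 84.6 in MOF cKO.

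Small RNA host genes were next. Of 45 symbols listed, 33 were in the annotation and 15 were of lincRNA type, the type that the rule admits. Of these 15, 12 had a lncRNA promoter in the set. In MOF cKO epithelial-like cells 11 of the 12 were lower, 1 of them by 2-fold, with a median of −0.33. Of all shared regions 57.2% were lower and 12.4% lower by 2-fold, and at protein-coding promoters 84.9% and 3.31%. In fibroblast-like cells 6 were lower and 6 higher, with a median of 0.00, and 48.7% of all shared regions were lower there. Of the hosts, Snhg6, Snhg12, Snhg20, Epb41l4aos, Mir17hg, Mir155hg and Mir124a-1hg have CpG-rich promoters and the others do not. In epithelial-like cells 90.1% of all CpG-rich shared regions were lower, with a median of −0.43, and 55.1% of the CpG-poor ones. Snhg6, host of a box C/D snoRNA, had 35.5 CPM in epithelial-like cells of Control and 24.9 in those of MOF cKO (log2 ratio −0.51, −0.60 to −0.43), whereas fibroblast-like cells had 37.5 and 35.9. Snhg12 had 20.9 and 14.9 in epithelial-like cells (−0.49, −0.60 to −0.38). Epb41l4aos had 20.2 and 14.8 (−0.45, −0.56 to −0.34), and Snhg20 had 9.79 and 7.30 (−0.42, −0.58 to −0.26). Mir17hg, precursor of the growth-promoting miR-17 to 92 cluster, had 22.4 and 15.1 (−0.57, −0.68 to −0.46), with clusters from 15.3 to 29.99 in Control and from 12.9 to 16.8 in MOF cKO.

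Of the remaining hosts, Mir155hg, host of an immune microRNA, had 8.59 and 7.87 CPM in epithelial-like cells (−0.13, −0.29 to 0.04). Mir670hg, the neural hosts Mir124a-1hg and Mir9-3hg, Mir142hg and Mirt1 had at most 4.38 CPM in Control, with log2 ratios from −0.24 to 0.13. Mirt1 stood on the list although it hosts no known small RNA. Carmn, which hosts the smooth muscle microRNAs miR-143 and miR-145, was the region lower by 2-fold, with 2.51 CPM in Control and 1.16 in MOF cKO in epithelial-like cells (−1.12, −1.48 to −0.76). Its level in Control was 27.1 in fibroblast-like and 59.6 in mural-like cells. Without clusters 12 and 19 its epithelial value turned to 0.73, so its decrease rested on those clusters.

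**Figure D2:**
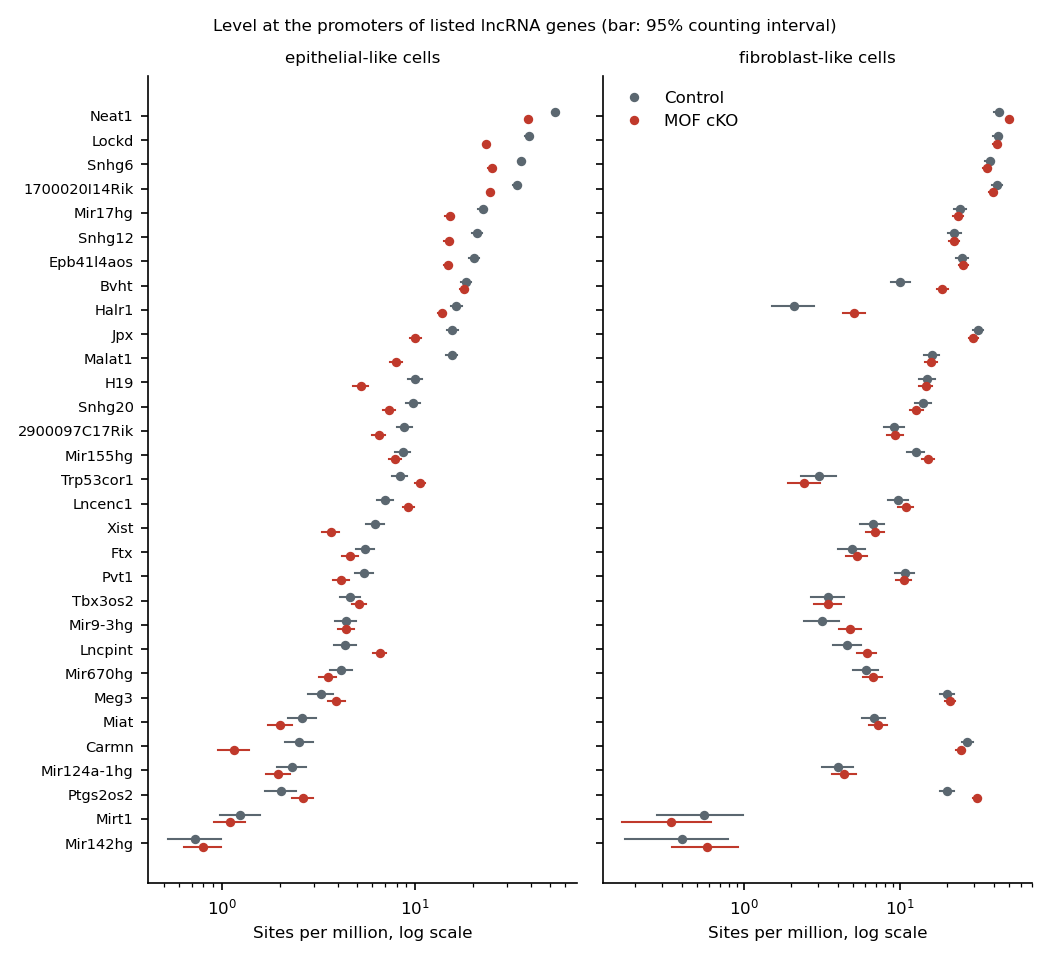
Level in CPM, on a log scale, at the promoters of 31 listed lncRNA genes (rows) in epithelial-like (left) and fibroblast-like cells (right), in Control (grey) and MOF cKO (red), with 95% counting intervals as bars. From Neat1 to Epb41l4aos the MOF cKO points lie left of the Control points in epithelial-like cells, whereas in fibroblast-like cells most pairs coincide, apart from Halr1, Bvht and Ptgs2os2, among others.

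On the list of nuclear organisation and X inactivation all 10 genes of lincRNA type, among 16 symbols, had a lncRNA promoter. Of the 10, 8 were lower in MOF cKO epithelial-like cells and 0 lower by 2-fold, with a median of −0.45. The same shares over all shared regions were 57.2% and 12.4%. In fibroblast-like cells 3 of the 10 were lower and 7 higher, with a median of 0.06, against 48.7% lower over all shared regions. Of these genes 1700020I14Rik, 2900097C17Rik, Ftx, Jpx and Miat have CpG-rich promoters and the others do not meet both limits. Malat1 and Xist pass the CpG ratio, with 0.83 and 0.80, but not the GC content, with 40.9% and 38.4%. Neat1, with a ratio of 0.589, falls just short of the limit of 0.6. In epithelial-like cells 90.1% of all CpG-rich shared regions were lower, with a median of −0.43, and 55.1% of the CpG-poor ones. Malat1, an abundant RNA of nuclear speckles, had 15.5 CPM in epithelial-like cells of Control and 7.95 in those of MOF cKO (−0.96, −1.10 to −0.82), while fibroblast-like cells had 16.0 and 15.9. Neat1 had 53.0 and 38.5 (−0.46, −0.53 to −0.39) and was higher in MOF cKO fibroblast-like cells, with 42.9 and 50.1 (0.22, 0.10 to 0.35). Malat1 and Neat1 are neighbours on chromosome 19 (chr19:5802084-5802811 and chr19:5845137-5846186). 1700020I14Rik, or Cyrano, had 33.6 and 24.4 (−0.46, −0.55 to −0.37), and 2900097C17Rik, the mouse Norad, had 8.77 and 6.47 (−0.44, −0.61 to −0.27). Lncpint, a p53-induced RNA, went the other way with 4.34 and 6.55 (0.60, 0.38 to 0.81).

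At the X-inactivation centre 3 lncRNA promoters were lower in epithelial-like cells. Xist (chrX:103482899-103483710) had 6.22 CPM in Control and 3.65 in MOF cKO (−0.77, −0.98 to −0.56), Jpx, an activator of Xist (chrX:103493113-103494010), had 15.6 and 10.0 (−0.64, −0.77 to −0.51), and Ftx had 5.50 and 4.597 (−0.26, −0.47 to −0.05). In fibroblast-like cells their log2 ratios were 0.06, −0.11 and 0.10, and the interval of each included 0. The sex of the embryos is not given in the sources used here, so a difference in the sexes of the embryos was not tested. Of 16 imprinted genes listed 4 were of lincRNA type, and of these H19 and Meg3 had a lncRNA promoter. H19 had 9.97 and 5.22 CPM in epithelial-like cells (−0.93, −1.11 to −0.76; −1.61 with cells thinned to 5000 sites) and 14.9 and 14.6 in fibroblast-like cells. Meg3 had 3.25 and 3.91 CPM in epithelial-like and 19.99 and 20.9 in fibroblast-like cells. Its level over both libraries was 28.8 in muscle-like and 26.5 in mural-like cells.

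Of 45 symbols listed for growth, stress and immune response 9 were of lincRNA type, and 7 of these had a lncRNA promoter. Of the 7, 4 were lower and 3 higher in epithelial-like cells, with a median of −0.13 and 0 past 2-fold. Of all shared regions 57.2% were lower, with a median of −0.15, and 12.4% lower and 16.8% higher by 2-fold. In fibroblast-like cells 4 were lower and 3 higher, with a median of −0.02 and 0 past 2-fold, where 48.7% of all shared regions were lower, 7.28% lower by 2-fold and 10.8% higher by 2-fold. Lockd had 38.7 CPM in epithelial-like cells of Control and 23.3 in those of MOF cKO (−0.73, −0.82 to −0.65), with clusters from 35.6 to 41.5 and from 19.9 to 30.2, and 42.3 and 41.8 in fibroblast-like cells. Pvt1, which lies beside Myc, had 5.44 and 4.13 (−0.40, −0.61 to −0.18), a decrease that turned to 0.52 when every cell was thinned to 5000 sites. Trp53cor1, the p53-induced lincRNA-p21 beside Cdkn1a, was higher, with 8.33 and 10.6 (0.35, 0.19 to 0.51). Ptgs2os2, named for the prostaglandin synthase gene Ptgs2, had 19.99 CPM in fibroblast-like cells of Control and 31.2 in those of MOF cKO (0.64, 0.47 to 0.81), and 37.6 and 45.8 in immune-like cells. Its epithelial-like log2 ratio of 0.38 was 1.61 without clusters 12 and 19.

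Of 68 symbols listed as next to a developmental gene 10 were of lincRNA type, and 4 of these had a lncRNA promoter. In epithelial-like cells 2 were lower and 2 higher, with a median of 0.06, and in fibroblast-like cells 4 were higher, with a median of 0.52. The shares of all shared regions that were lower were 57.2% and 48.7%, and 4 regions are too few to set against them. Halr1, at the edge of the Hoxa cluster, had 16.3 CPM in epithelial-like cells of Control and 13.8 in those of MOF cKO (−0.24, −0.36 to −0.12). Over the alternatives this log2 ratio ran from −0.39 to 0.10. Its level over both libraries was 14.7 CPM in epithelial-like cells and 13.0 in endothelial-like cells, the latter from 30 sites. In fibroblast-like cells it went from 2.09 to 5.07 (1.28, 0.78 to 1.81), past 2-fold as were 10.8% of all shared regions, but with cells thinned to 5000 sites this value was 0.31. Bvht, known from heart development, had 18.4 and 17.9 in epithelial-like and 10.1 and 18.7 in fibroblast-like cells (0.89, 0.66 to 1.13). For Halr1 and Bvht the fibroblast-like values moved towards the epithelial-like level, and whether epithelial signal in those cells took part was not tested. Tbx3os2 and Lncenc1 had log2 ratios of 0.16 and 0.40 in epithelial-like and 0.00 and 0.16 in fibroblast-like cells.

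The 8 largest increases in epithelial-like cells were picked by the ratio among regions with at least 200 sites over both libraries, so a low level in Control follows from the choice. Of the 8, 7 had 0.258 to 1.30 CPM per kb in Control, below the median of all shared regions, which was 1.71, and 4933425B07Rik had 1.93. Gm33968 (chr8:34523571-34524486), nearest to the coding start of Dusp4, went from 0.510 CPM in Control (0.343–0.730) to 16.9 in MOF cKO (16.1–17.7), a log2 ratio of 5.05 (4.52 to 5.63). Over the epithelial-like clusters it ranged from 0.00 to 0.96 in Control and from 3.84 to 22.8 in MOF cKO. In fibroblast-like cells it went from 0.302 to 1.73 (2.52, 1.30 to 4.02). AL805899.2, whose nearest coding start is that of Mtap, went from 0.708 to 14.7 (4.38, 3.93 to 4.86), and its clusters from 0.11 to 1.92 in Control and from 8.49 to 17.7 in MOF cKO. A530046M15Rik, whose nearest coding start is that of the activin subunit gene Inhba, went from 0.725 to 13.2 (4.18, 3.74 to 4.66), and from 3.27 to 8.75 in fibroblast-like cells (1.42, 1.02 to 1.83).

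The other 5 of the 8 largest increases had log2 ratios from 3.404 to 3.73. They were Gm43660, with 0.397 and 5.26 CPM, Gm41183, with 0.648 and 8.36, 4933425B07Rik, with 1.70 and 18.8, 4921513I03Rik, with 1.25 and 13.3, and Gm6634, with 0.259 and 2.87. At Gm6634 the clusters of the genotypes overlapped, and its level in Control was higher in fibroblast-like cells, with 6.29 CPM, than in epithelial-like cells. Without clusters 12 and 19 its log2 ratio was 5.08. The log2 ratios of all 8 were at least 3.136 under each alternative in which they were measured.

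The 8 largest decreases were picked among regions with at least 200 sites over both libraries, so a level well above 0 in Control epithelial-like cells follows from the choice. Gm36101 (chr13:48031126-48032111), whose nearest coding start is that of Id4, went from 6.05 CPM (5.44–6.72) to 0.477 (0.352–0.631), a log2 ratio of −3.67 (−4.13 to −3.23). Its level varied over the Control clusters from 0.40 to 35.2, and over the MOF cKO clusters from 0.00 to 0.95. Gm42565 (chr5:64635319-64636247), whose nearest coding start is that of Klf3, went from 9.34 to 1.49 (−2.65, −2.92 to −2.39), with 4.44 to 16.46 over the Control clusters and 0.88 to 2.52 over those of MOF cKO. Gm32921 and Gm32235 had log2 ratios of −2.74 and −2.72, and Gm4544, Gm44837, Gm12410 and Gm31138 ran from −2.37 to −2.19. At Gm36101, Gm32921, Gm4544 and Gm12410 the clusters of the genotypes overlapped, since some Control clusters were as low as those of MOF cKO. With cells thinned to 5000 sites Gm12410 was at −1.19 and Gm32235 at −1.91, while Gm32921 and Gm42565 were at −3.83 and −3.68.

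Motif letters went with the direction of change in epithelial-like cells, at lncRNA promoters as over all shared regions. The AP-1 letters were present in the central 400 bp of 19.1% of lncRNA promoters and of 18.3% of all shared regions. Among lncRNA promoters at least 2-fold higher in MOF cKO epithelial-like cells 54.1% held them, and among those at least 2-fold lower 5.80%. The same shares over all shared regions were 53.5% and 4.01%. In fibroblast-like cells 41.2% of the lncRNA promoters higher by 2-fold and 16.505% of those lower by 2-fold held the letters, against 39.3% and 10.5% of all shared regions. From RNA of single cells, the study reported lower expression of Fos, Jun, Junb and Atf3 in MOF cKO basal cells. Which factors were bound at these letters was not tested.

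**Figure D3:**
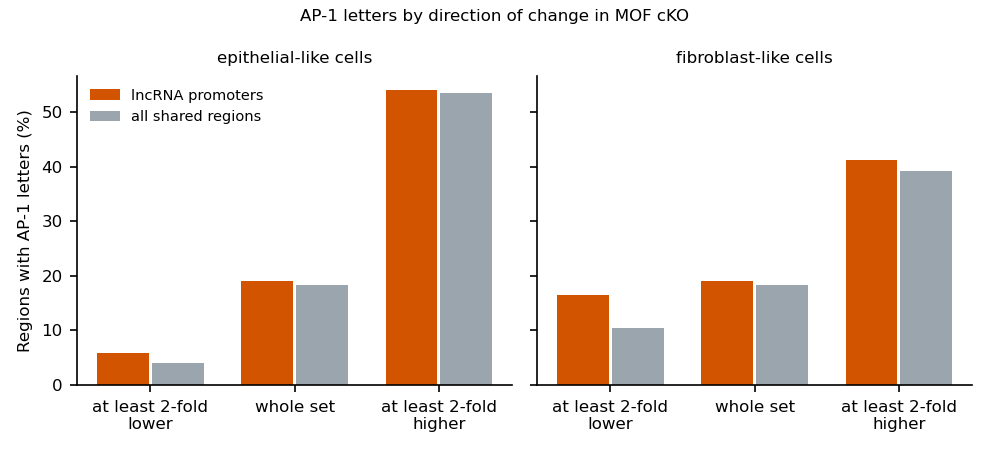
Percent of regions with the AP-1 letters in their central 400 bp (y axis), among regions at least 2-fold lower in MOF cKO, all regions of the set, and regions at least 2-fold higher, for lncRNA promoters (orange) and all shared regions (grey), in each cell class. The bars for higher regions reach 54.1% and 53.5% in epithelial-like cells, and those for lower regions 5.80% and 4.01%.

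Read the other way, the 359 lncRNA promoters with AP-1 letters had a median log2 ratio of 0.81 in epithelial-like cells, with 160 (44.6%) at least 2-fold higher and 13 (3.62%) at least 2-fold lower. The 1517 without had a median of −0.32, with 136 (8.97%) higher and 211 (13.9%) lower by 2-fold. Over all shared regions the medians were 0.97 with the letters, where 49.2% were higher and 2.72% lower by 2-fold, and −0.28 without, where 9.58% were higher and 14.6% lower. In fibroblast-like cells the medians were 0.42 over the 344 measured regions with the letters and 0.00 over the 1464 without, against 0.38 and −0.03 over all shared regions. Without clusters 12 and 19 the epithelial medians of lncRNA promoters were 0.97 and −0.26. Then 179 with the letters were higher and 8 lower by 2-fold, and of those without the letters 163 were higher and 168 lower, so that lower and higher calls were close in number. Of all shared regions with the letters 52.1% were then higher and 2.21% lower, and of those without the letters 11.1% and 12.3%. The other letters searched on both strands divided the lncRNA promoters less. The GC box was in 20.4% of them, with a median change of −0.37 in epithelial-like cells, and the ETS letters CCGGAAG were in 5.76%, with a median of −0.41. Both were commoner in CpG-rich lncRNA promoters, at 78.9% and 18.05%. In all shared regions they were in 14.98% and 3.29%. The CCAAT box (40.3%, all shared regions 41.2%), the TATA box TATAAA (16.0% and 20.5%), the RFX letters GTTGCCA (5.92% and 5.32%) and the NRF1 core GCGCATGC (1.39% and 1.07%) had median changes from −0.24 to −0.06 in epithelial-like cells. The GC box can overlap a CpG-rich stretch, and the counts by motif are not independent of CpG content.

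Both cell classes could be compared at 1808 lncRNA promoters. At least 2-fold higher in both were 68, at least 2-fold lower in both were 22, and 1136 stayed within 2-fold in both. These were 3.76%, 1.22% and 62.8% of the promoters, against 4.74%, 1.94% and 60.8% of the 199230 shared regions measured in both classes. Opposite calls were 12 (0.664%) with a higher epithelial-like value and 1 with a higher fibroblast-like value, against 0.718% and 0.509%. Those higher by 2-fold in epithelial-like cells had a median of 0.53 in fibroblast-like cells over 279 measured, and those lower by 2-fold had a median of −0.21 over 216. These medians were 0.53 and −0.30 over all shared regions. These values come from the same 2 libraries, so a difference between the preparations would move both classes. The regions with the largest increases in fibroblast-like cells included Gm40639, from 0.453 to 4.02 CPM (3.15, 2.18 to 4.31), 4930447J18Rik, from 0.655 to 4.31 (2.72, 1.90 to 3.67), and 2810407A14Rik, whose nearest coding start is that of Bach1, from 0.579 to 3.57 (2.62, 1.74 to 3.64). The last of these, with 4.59 and 20.3 in epithelial-like cells, was higher in both. With cells thinned to 5000 sites Gm40639 and 4930447J18Rik were at 1.61 and 1.94 in fibroblast-like cells. Over the fibroblast-like clusters 4930447J18Rik ranged from 0.33 to 1.19 CPM in Control and from 0.00 to 8.81 in MOF cKO, so the genotypes overlapped. At Gm40639 and 2810407A14Rik these clusters did not overlap.

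**Figure D4:**
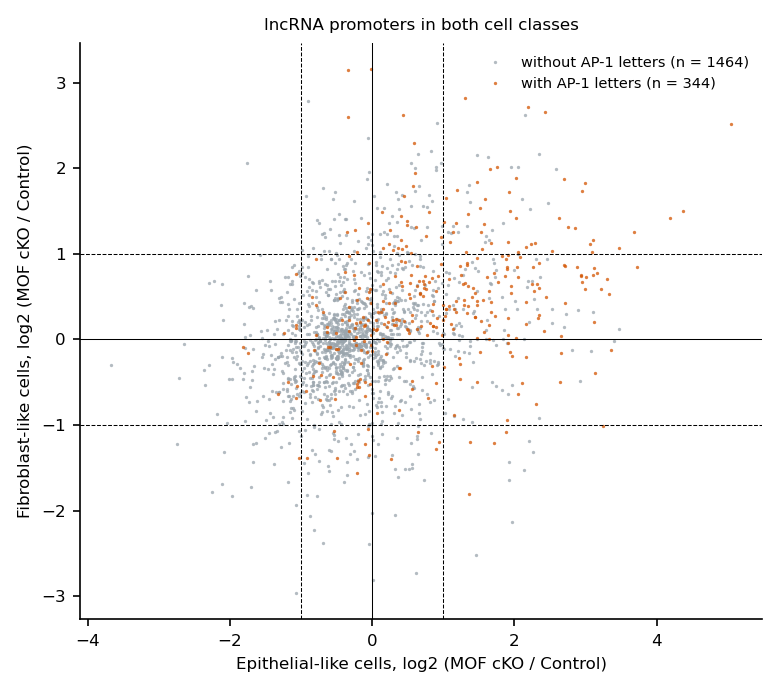
Each dot is 1 of 1808 lncRNA promoters, with the log2 ratio of MOF cKO to Control in epithelial-like (x axis) and fibroblast-like cells (y axis); orange dots hold AP-1 letters (344) and grey dots do not (1464), and dashed lines mark 2-fold. Orange dots gather to the right of 0, and 68 regions of either colour lie beyond 2-fold in the upper right corner.

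Promoters with the letters also differed from each other. Gm40639 and 4930447J18Rik, both with AP-1 letters in the stretches that follow, differed in epithelial-like cells, where Gm40639 had 0.967 and 0.767 CPM (−0.33, −0.85 to 0.19) and 4930447J18Rik had 1.08 and 4.94 (2.19, 1.81 to 2.60). They were read on the strand of the lncRNA at chr10:45023997-45024083 and chr14:47898354-47898440, with the match in capitals.
Gm40639: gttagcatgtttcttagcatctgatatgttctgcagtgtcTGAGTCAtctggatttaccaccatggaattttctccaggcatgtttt
4930447J18Rik: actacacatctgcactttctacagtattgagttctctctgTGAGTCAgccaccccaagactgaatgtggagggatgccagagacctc

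Of the 103 lncRNA promoters lower by 2-fold in fibroblast-like cells, 37 were at least 2-fold higher in fibroblast-like than in epithelial-like cells of Control, 38 were within 2-fold and 28 were higher in epithelial-like cells. These were 35.9%, 36.9% and 27.2%, against 33.5%, 33.2% and 33.3% of the 14504 shared regions lower by 2-fold in that class. The 5 with the largest decreases were picked among those with at least 200 sites, so a high level in Control fibroblast-like cells follows from the choice. Gm12532 went from 5.54 to 0.969 CPM (−2.52, −3.15 to −1.92), AI838599 from 7.45 to 1.42 (−2.39, −2.91 to −1.90), Gm34425 from 5.26 to 1.19 (−2.14, −2.72 to −1.59), 1700023C21Rik from 8.56 to 2.05 (−2.06, −2.50 to −1.64) and Gm4640 from 3.90 to 0.952 (−2.03, −2.70 to −1.41). In epithelial-like cells Gm12532 and Gm34425 were higher in MOF cKO, with log2 ratios of 1.46 and 1.97. With thinned cells the former was 0.76.

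Cell class divided lncRNA promoters more than genotype did. In Control 670 (35.7%) were at least 2-fold higher in epithelial-like than in fibroblast-like cells and 427 (22.8%) at least 2-fold lower. Over all shared regions these shares were 39.5% and 23.7%, so lncRNA promoters were no more divided by class than accessible regions in general. AC161258.2, whose nearest coding start is that of the chromatin organiser gene Satb1, had 679 sites (5.86 CPM) in Control epithelial-like cells and 0 in fibroblast-like cells. Against a floor of 3 fragments in that class this is at least 38.8-fold higher, and the lower end of the two-sided counting interval, as given for the genes that follow, was 31.4. Gm44692, with 579 sites and 0, was at least 33.1-fold higher by the same floor, with a lower end of 26.7. 4930412B13Rik, whose nearest coding start is that of Thbs1, had 26.0 and 0.302 CPM, an 86.0-fold difference (39.4 to 235), and was lower in MOF cKO epithelial-like cells, at 11.6 (−1.16, −1.27 to −1.05). Gm31583, whose nearest coding start is that of Bcl6, had 584 sites and 1, and the interval of the fold ran from 21.3 to 204500. Gm35585 had 1934 sites and 4, with an interval of 45.8 to 1371.

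The fibroblast-like end was held by Gm6634, Gm48820, Gm35189, Gm13869 and Gm47415, which had 6.29 to 10.5 CPM in Control fibroblast-like cells and 0.259 to 0.613 in epithelial-like cells, with log2 ratios from −4.603 to −4.05. Carmn and Ptgs2os2 stood at −3.43 and −3.31 on the same scale. The remaining classes had lncRNA promoters of their own, given as CPM over both libraries. In immune-like cells 4930515B02Rik had 59.7 and Mir142hg, host of a blood cell microRNA, had 54.0, against at most 0.937 in epithelial-like and fibroblast-like cells. Gm44744 and Gm29685 had 40.6 and 18.2 in mural-like cells, Gm30624 and Gm47716 had 42.2 and 26.8 in muscle-like cells, and Gm33172 and 4930594O21Rik had 49.7 and 30.7 in endothelial-like cells. The mural-like, muscle-like and endothelial-like values rest on 54 to 176 sites each. Gm47716 was also higher in MOF cKO epithelial-like cells, from 0.984 to 7.85 CPM (2.99, 2.61 to 3.41).

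The change in epithelial-like cells differed with this class preference, but part of that rested on clusters 12 and 19. With all clusters, lncRNA promoters higher in fibroblast-like cells of Control had a median of −0.40, with 94 of 427 (22.0%) lower and 65 (15.2%) higher by 2-fold, against 24.4% and 13.2% of all shared regions of that preference. Without clusters 12 and 19 the median was 0.05, with 47 of 461 (10.2%) lower and 108 (23.4%) higher by 2-fold, against 11.9% and 20.7%. Over all shared regions of that preference the median went from −0.44 to −0.01. Regions within 2-fold between classes kept a median of −0.24 with and without these clusters, and those higher in epithelial-like cells had 0.06 and 0.04. All these groupings use the Control values that enter the ratio.

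**Figure D5:**
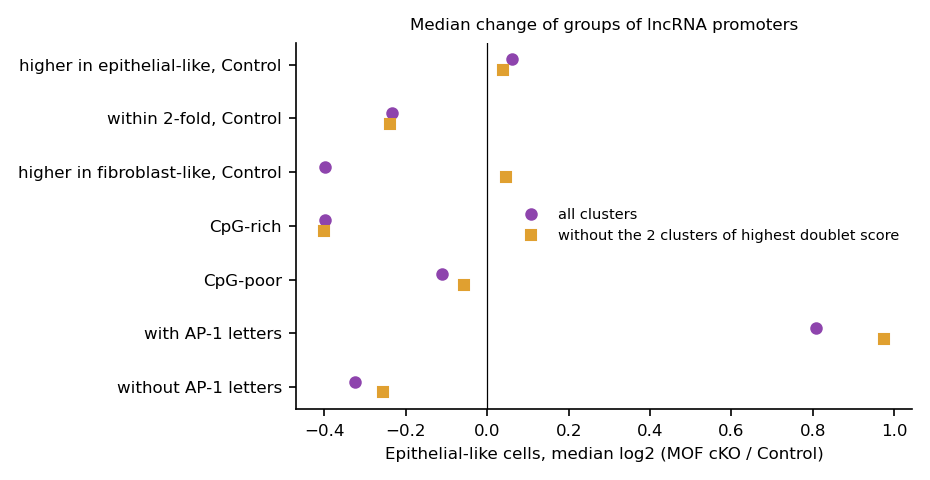
Median log2 ratio of MOF cKO to Control in epithelial-like cells (x axis) for groups of lncRNA promoters (rows) with all clusters (circles) and without the 2 clusters of highest doublet score (squares). Promoters higher in fibroblast-like cells of Control move from −0.40 to 0.05, CpG-rich promoters stay at −0.40, and promoters with AP-1 letters lie at 0.81 and 0.97.

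LncRNA promoters and the promoter of the nearest protein-coding gene changed with little relation to each other. At 1560 lncRNA promoters in epithelial-like cells the promoter of that gene was measured as well, and Pearson's r between the log2 ratios was 0.01 and Spearman's rho 0.04, a description across regions of the same libraries. For the 200 pairs within 10 kb r was 0.19 and rho 0.20. The neighbours of the 197 lncRNA promoters lower by 2-fold had a median of −0.44 and those of the 242 higher by 2-fold had −0.43, close to the −0.42 of the rest. At 6 of the 197 the neighbour was also lower by 2-fold, and at 6 of the 242 it was also higher by 2-fold, which is 3.05% and 2.48%. Over all 1560 pairs the neighbour was lower by 2-fold at 3.21% and higher at 1.99%. In fibroblast-like cells r was 0.02 over 1490 pairs.

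The median varied with distance to coding genes and with repeat content. It was −0.25 in epithelial-like cells for the 240 lncRNA promoters 2 to 10 kb from a protein-coding start, −0.19 for the 705 at 10 to 50 kb, −0.16 for the 379 at 50 to 100 kb and −0.10 for the 552 beyond 100 kb, against −0.13, −0.10, −0.09 and −0.04 for all shared regions at these distances. The share lower by 2-fold was 7.50% in the nearest and 16.7% in the farthest group, and the share higher by 2-fold 13.3% and 18.7%. Over all shared regions the shares were 11.6% and 15.3% lower, and 16.3% and 21.3% higher. The 67 regions that are repeat-masked over 50% or more of their central 400 bp had a median of −0.01 and the rest −0.18, where all shared regions had −0.0041 and −0.16. The 126 regions just inside the rule, with a start 400 to 500 bp away, had a median of −0.15, and the 121 less than 100 bp outside it had −0.24. The 20 regions up to 500 bp beyond the limit of 2 kb from a protein-coding start had a median of −0.15, and the 15 up to 500 bp nearer, which failed the rule, had −0.31.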

How the data were processed

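Single-cell ATAC-seq was analysed in 1 Control and 1 MOF cKO library. Per the labels and their processing notes the authors ran cellranger-atac 2.0.0 on mm10 for each library, and deposited the peaks, the barcodes called as cells and a matrix of raw counts of transposition sites for every peak and barcode. Each fragment gives 2 sites, so intervals were computed on fragments.

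Peaks of the libraries were merged where they overlapped, and the 214119 regions with a peak from each were kept, each count being the sum over a library's own peaks in the region. Differences between the libraries in peak width therefore enter the values. Barcodes under 1000 sites (60) were left out. The remaining 6829 cells were clustered without the lncRNA promoters (50000 regions, 30 components, 20 neighbours, Leiden at resolution 1, igraph 0.11.9, leidenalg 0.10.2), which gave 24 clusters, named from marker promoters at least 2-fold above the other cells. Clusters that were shallow, rested on under 3 markers, led with another class's markers or had a second class close in marker score stayed unnamed (326 Control and 177 MOF cKO cells). No cell was removed as a doublet in the main values; a score from simulated doublets served the alternatives. Gene starts, biotypes and sequence came from GENCODE M21 and GRCm38.p6. Where several starts lay near a region, the region was counted once. GC and CpG content were read over the whole region, and repeat masking and motifs in its central 400 bp.

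Sites were summed by class and library, and ratios were taken of CPM at regions with at least 20 sites over both libraries. The ratio script was tested on simulated counts. Intervals are exact (Poisson for levels, conditional binomial for ratios, Clopper-Pearson for shares, 95%). Named were listed genes with at least 200 sites in either class, the 8 largest changes each way in epithelial-like and the 5 in fibroblast-like cells on autosomes at 200 sites, the 8 highest levels, and the regions most particular to a class by ratio (5 each way between the 2 main classes, 2 for each other class at 50 sites). Promoters with opposite changes were named after their values were seen. The members and the gene lists were chosen with earlier results of these data known. Scripts ran in Python 3.11.15 with bedtools 2.31.1, scikit-learn 1.9.0, scipy 1.17.1, pandas 2.3.3 and numpy 2.4.6. Alternatives covered scaling, site minimum, cell depth, thinning, doublets, cluster naming and the rule for promoters.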

Additional observations from a re-analysis of the deposited data

Results flagged for a closer look

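Opposite changes in the 2 cell classes drew attention, although with 1 library per genotype the difference was not tested. At least 2-fold higher in MOF cKO epithelial-like cells and at least 2-fold lower in MOF cKO fibroblast-like cells were 12 lncRNA promoters (0.664%), against 0.718% of all shared regions measured in both classes. Among them 5430421F17Rik went from 2.70 to 12.4 CPM in epithelial-like cells (log2 ratio 2.20) and from 16.1 to 7.09 CPM in fibroblast-like cells (−1.19), and Gm29243 went from 3.17 to 12.1 (1.93) and from 6.77 to 2.50 (−1.44). For Gm43242, with a fibroblast-like log2 ratio of −1.01, the interval of that ratio ran from −2.49 to 0.41. The converse was seen at 0.509% of all shared regions and at 1 lncRNA promoter, AC138174.2, which went from 6.46 to 1.91 CPM in epithelial-like cells (−1.76, −2.01 to −1.50) and from 0.428 to 1.79 CPM in fibroblast-like cells (2.07, 1.01 to 3.31).

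Regions near a lincRNA start that had a peak in 1 library alone entered no comparison. A peak in MOF cKO alone was present at 542 such regions, 0.442% of the 122539 regions with a peak in that library alone. A peak in Control alone was present at 168, 0.509% of 32976. The MOF cKO library was the deeper one, and the part of depth in these counts was not tested.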

How the results depend on the processing

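No paired analysis was possible because each genotype had 1 library, and for the same reason no replicate was left out. Of 150 comparisons of a summary value with an alternative, 116 kept direction and size, 31 moved and 3 turned sign. The cause was not tested except where the alternative itself removes cells or regions.

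The summed change in epithelial-like cells (log2 ratio −0.09) was −0.24 when scaled by sites in own peaks, 0.058 by median-of-ratios and −0.14 by number of cells. It was −0.12 with cells thinned to 5000 sites, −0.071 with unnamed clusters counted, −0.14 with the start within 100 bp, −0.078 for starts of any transcript, −0.085 beyond 10 kb from a coding start, −0.10 for peaks overlapping by 50% and −0.017 without the pair on chromosome 17. The median change in epithelial-like cells (−0.17) was −0.32, −0.021 and −0.22 under the 3 scalings, −0.025 thinned, −0.11 without the highest doublet scores and −0.091 without clusters 12 and 19. In fibroblast-like cells the summed change (0.07) was 0.022, 0.055 and −0.20 under the 3 scalings, 0.089 thinned, 0.083 beyond 10 kb and 0.026 without the pair, and the median change (0.06) was 0.0095 by own peaks and −0.21 by number of cells.

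Promoters at least 2-fold lower in epithelial-like cells (224) numbered 147 by median-of-ratios and 140 thinned, and 290 by own peaks, where those higher (296) numbered 264. In fibroblast-like cells those lower (103) and higher (177) numbered 175 and 109 by number of cells, 42 and 99 at a minimum of 100 sites, and 40 and 99 thinned. In Control, those higher in epithelial-like cells (670) numbered 403 thinned and those higher in fibroblast-like cells (427) numbered 266. Thinning tested only 1406 and 933 of the 1876 promoters and left out 304 Control and 74 MOF cKO cells. All shared regions were not counted under these alternatives.

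Of 48 named values of 2-fold or more, 7 dropped below 2-fold under some setting. Carmn turned to 0.37 without the highest doublet scores and to 0.73 without clusters 12 and 19 in epithelial-like cells. Leaving out those clusters, or the chromosome 17 pair, was decided after seeing the data. At 200 sites or more were 975 of the promoters in fibroblast-like and 1651 in epithelial-like cells.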
